A study of Homo sapiens with 6 samples.

Results

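USP17L11, TAF11L3, TAF11L7 and NPIPB5 are 4 protein-coding genes from families whose copies are labelled near-identical. All 4 had an ENO1 peak at a gene end in both ENO1 libraries. They were chosen by those ENO1 peak calls, within 1 kb of an annotated gene end in replicates 1 and 2, so their ENO1 values describe the choice and support nothing further. They are 4 of 19866 protein-coding genes placed on the 24 chromosomes, and 4 of the 50 protein-coding copies of their families, which were found by symbol prefix: 25 USP17L, 13 TAF11L and 12 NPIPB genes.

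The libraries came from HepG2, an established human hepatocellular carcinoma line, profiled with CUT&Tag, where a transposase guided by the antibody inserts sequencing adapters into nearby DNA. Antibodies were directed against ENO1, enolase 1 of glycolysis; H4K12la, histone H4 lactylated at lysine 12; or HDAC1, a histone deacetylase. Each target had 2 libraries, replicates 1 and 2, and the labels give no treatment, genotype change or control antibody for any of the 6. Nothing in the labels states that the pairs are separate cultures, and their spread could be technical. The ENO1 lists held 1592 and 1189 peaks, those of H4K12la 5459 and 7568, and those of HDAC1 5727 and 4567. Of 14 hepatocyte marker genes, HNF4A alone had a gene-end peak in both replicates of a target (H4K12la). For H4K12la, 10.5% of all protein-coding genes had such a peak, and a peak list does not measure expression. Sequencing depth is unknown, and the absence of a peak is not the absence of signal.

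USP17L genes encode deubiquitinases of the USP17 (DUB3) group, which remove ubiquitin from proteins that act in the cell cycle, and many of them sit head to tail in a large tandem repeat. TAF11L genes are relatives of TAF11, a subunit of the general transcription factor TFIID that pairs with TAF13 through a histone fold. NPIPB genes encode proteins of the nuclear pore complex interacting family and were spread along chromosome 16 by segmental duplication. In all of these families a short read can match several copies equally well, and how the authors placed such reads was not stated. The copy to which a peak is assigned is therefore uncertain throughout.

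The promoter letters of the TAF11L copies are shown because they tell how far neighbouring copies can be told apart and because a peak of both ENO1 replicates reached one of them. The windows, from RefSeq on GRCh38.p14, hold 250 bases before the annotated start and 50 from it on, 5′ to 3′ on the gene's strand. TAF11L3 lies at chr5:17518117-17518416 on the plus strand, TAF11L7 at chr5:17585709-17586008 on the minus strand and TAF11L13, a copy with no peak within 10 kb in any library, at chr5:17631838-17632137 on the plus strand. Capitals mark, in TAF11L3, the 78 bases inside the ENO1 peaks of both replicates, and in the other two the bases that differ from TAF11L3.
TAF11L3: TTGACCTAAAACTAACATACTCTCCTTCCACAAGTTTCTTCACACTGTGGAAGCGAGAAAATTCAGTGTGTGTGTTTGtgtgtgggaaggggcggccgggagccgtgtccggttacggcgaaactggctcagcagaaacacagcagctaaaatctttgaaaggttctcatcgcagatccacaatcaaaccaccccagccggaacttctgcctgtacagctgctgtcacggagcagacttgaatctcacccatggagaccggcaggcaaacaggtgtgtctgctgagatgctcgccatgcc
TAF11L7: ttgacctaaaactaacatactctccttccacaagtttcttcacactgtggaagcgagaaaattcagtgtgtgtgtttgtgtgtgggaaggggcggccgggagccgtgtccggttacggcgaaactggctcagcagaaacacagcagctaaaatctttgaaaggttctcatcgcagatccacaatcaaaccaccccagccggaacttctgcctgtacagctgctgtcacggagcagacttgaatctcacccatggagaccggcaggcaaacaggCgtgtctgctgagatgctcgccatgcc
TAF11L13: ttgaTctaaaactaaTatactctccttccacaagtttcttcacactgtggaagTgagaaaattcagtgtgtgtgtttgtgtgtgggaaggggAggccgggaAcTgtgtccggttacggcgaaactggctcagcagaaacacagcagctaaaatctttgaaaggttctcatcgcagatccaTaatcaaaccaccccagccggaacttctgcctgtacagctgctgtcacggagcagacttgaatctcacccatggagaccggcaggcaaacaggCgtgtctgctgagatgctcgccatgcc

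TAF11L4, TAF11L5, TAF11L6 and TAF11L10 carry exactly the letters of TAF11L3 over all 300 bases. TAF11L7 differs from it by T274C alone, counted from 1 at the 5′ end of the window, and shares its 300 letters with TAF11L8. TAF11L9 also differs by 1 base, TAF11L13 by 8, and TAF11L2 and TAF11L14 match TAF11L3 at 92.1% and 87.1% of aligned positions. TAF11L11 and TAF11L12 do not resemble it there, at 49.4% and 49.9%, about the level of TAF11 itself (51.1% and 51.2% for its annotated starts). The label of near-identical copies thus holds for 8 of the 13 TAF11L promoters, those that differ from TAF11L3 by at most 1 base or are TAF11L3 itself. Among the 13 windows, that of TAF11L3 alone was touched by any peak. The letters GGGCGG (GC box, either strand) occur in 10 of the 13 windows, at position 90 in TAF11L3, and in 44.6% of the 27305 promoters of the table. CACGTG (E box) occurs in 0 of the 13, against 7.43% of all promoters. These matches describe letters only.

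For USP17L, the evidence of likeness used here is size and spacing. Of its 25 protein-coding genes, 22 are annotated at 1593 bp. On chromosome 4 neighbouring starts lie 4647 to 4847 bp apart in the lower of its 2 runs and 4744 to 4747 bp in the upper. The 8 promoter windows of 6 NPIPB genes had 38.5% to 90% identity with one another, with a shared stretch of up to 202 letters. Whether their annotated starts fall at the same place of the duplicated unit was not tested. NPIPB5 was not among these genes, and no USP17L promoter was available. The label of near-identical copies was therefore not checked on sequence for USP17L11 or NPIPB5.

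At USP17L11 (chr4:9215405-9216997), ENO1 had a peak of 5.22-fold in replicate 1 and 5.95-fold in replicate 2, with -log10 q of 9.43 and 15.1. Fold enrichment is the peak caller's own ratio of summit signal to background within a library. HDAC1 had 5.49-fold and 5.37-fold in the same place (-log10 q 12.1 and 9.63), and H4K12la had no peak within 10 kb in either library. The ENO1 summits, at 9216632 and 9216630, were 2 bp apart, and the HDAC1 summits lay at 9216631 and 9216564. All 4 peaks overlapped and covered the upper part of the gene, with summits 365 to 433 bp inside its upper annotated end. The only other peak within 10 kb was one of HDAC1 replicate 2 at 4.03-fold, inside USP17L13.

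TAF11L3 (chr5:17518367-17518963) had a peak upstream of its start in all 6 libraries. ENO1 had 5.20-fold and 3.43-fold in replicates 1 and 2, H4K12la 3.48-fold and 4.53-fold, and HDAC1 5.43-fold and 6.17-fold. The -log10 q values of ENO1 were 12.6 and 5.69, those of H4K12la 3.34 and 7.29, and those of HDAC1 19.0 and 20.0. The ENO1 peaks exceeded 37.2% and 9.0% of the peaks of their own lists, and the HDAC1 peaks 68.9% and 76.2% of theirs. The summits gathered in 2 places. ENO1 replicate 1 and both HDAC1 libraries had theirs 625 or 626 bp before the gene start, while ENO1 replicate 2 and H4K12la replicate 1 had theirs 273 and 274 bp before it. H4K12la replicate 2 lay between, at 540 bp. Altogether 5 peaks reached the promoter window printed above, and the HDAC1 peak of replicate 2 stopped short of it. All other peaks within 10 kb of TAF11L3 lay nearest TAF11L5 or TAF11L6.

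TAF11L7 (chr5:17585162-17585758) had all its peak summits inside the gene and none before its start. Its ENO1 and HDAC1 peaks also ran past the far end of the gene, and its H4K12la peak lay wholly inside it. ENO1 had 4.31-fold and 5.23-fold in replicates 1 and 2 (-log10 q 7.49 and 13.4). H4K12la and HDAC1 had a peak only in replicate 1, at 4.63-fold and 4.52-fold (-log10 q 6.25 and 9.54). On the gene's strand the ENO1 summits lay 565 and 541 bp after the start and the HDAC1 summit 527 bp after it, close to the far end of this 597 bp gene, with H4K12la at 312 bp. TAF11L7 and TAF11L3, whose promoter windows differ by 1 base, thus had their peaks at different ends. No other peak lay within 10 kb of TAF11L7.

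NPIPB5 (chr16:22503599-22536535) had a peak near its upper annotated end in all 6 libraries. ENO1 had 4.83-fold and 4.07-fold in replicates 1 and 2, H4K12la 2.91-fold and 4.00-fold, and HDAC1 4.62-fold and 4.64-fold. The -log10 q values of ENO1 were 9.49 and 6.59, those of H4K12la 3.28 and 7.82, and those of HDAC1 14.2 and 12.6. ENO1 replicate 2, H4K12la replicate 2 and HDAC1 replicate 2 shared 1 summit base, 22535679, which lies 856 bp inside the gene end. The other 3 summits lay 799 to 842 bp inside it. HDAC1 replicate 2 had a second, lower peak of 3.26-fold with its summit 2037 bp inside the end, a stretch that the single 1709 bp peak of HDAC1 replicate 1 also covered. H4K12la replicate 2 had a further peak of 3.25-fold, 5747 bp below the gene. The long noncoding RNA gene LOC105371131 (chr16:22513421-22538879) overlaps the same place, and apart from copies of the same families no protein-coding gene lies within 10 kb of any of the peaks around the 4 genes.

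**Figure D1:**
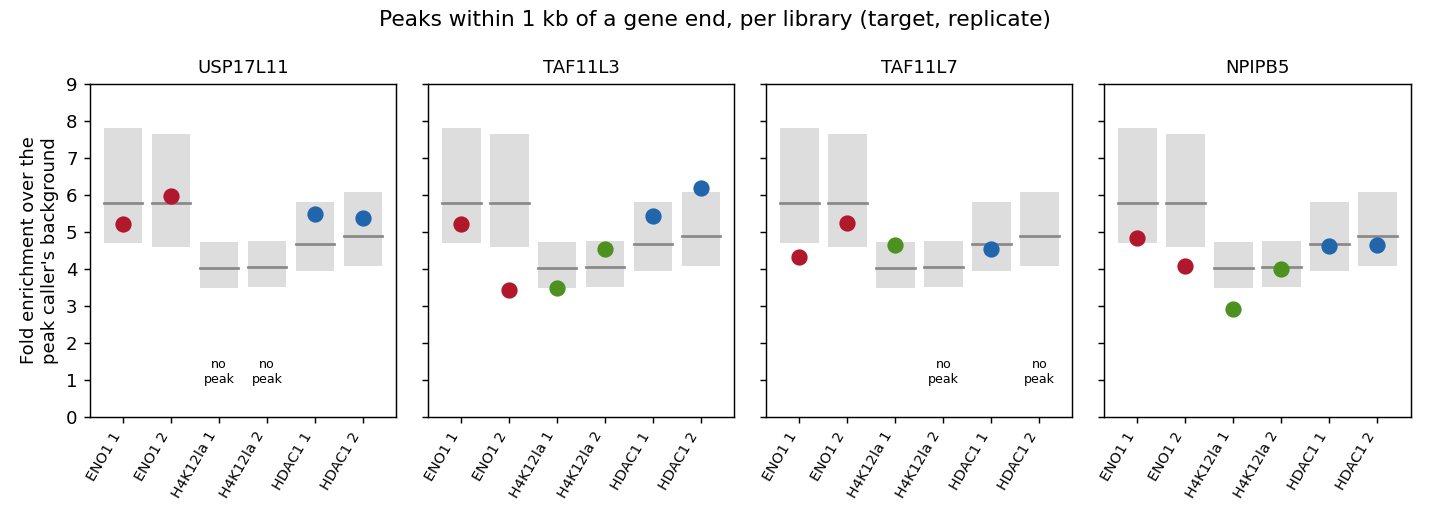
Fold enrichment of the highest peak within 1 kb of a gene end (points) at USP17L11, TAF11L3, TAF11L7 and NPIPB5 in each library, named by target and replicate. Grey boxes run from the lower to the upper quartile of all peaks of that list, with the median as a line, and folds are comparable only within a list. The ENO1 points lie at or below the ENO1 medians of 5.76 and 5.78, except USP17L11 in replicate 2 at 5.95.

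Averaged over replicates, ENO1 reached 5.58 ± 0.520-fold at USP17L11, 4.77 ± 0.651 at TAF11L7, 4.45 ± 0.540 at NPIPB5 and 4.31 ± 1.25 at TAF11L3 (SD, n = 2 each). These means join lists without scaling between libraries. Within each ENO1 list USP17L11 was the highest of the 4, in replicate 1 only narrowly (5.22-fold against 5.20-fold at TAF11L3). The order of the other genes changed between replicates and is not resolved. The ENO1 gene-end peaks of the 4 genes ranked from the middle to the low part of their lists. The highest, USP17L11 in replicate 2, exceeded 52.4% of that list, and the others 9.0% to 37.9% of theirs. Of the 3 genes with HDAC1 in both replicates, TAF11L3 had the highest mean (5.80 ± 0.519), followed by USP17L11 (5.43 ± 0.083) and NPIPB5 (4.63 ± 0.011). The order of TAF11L3 and USP17L11 differed between replicates. In replicate 1 USP17L11 was higher (5.49-fold against 5.43-fold), and in replicate 2 TAF11L3 was (6.17-fold against 5.37-fold). Among the genes with H4K12la in both replicates, TAF11L3 had 4.01 ± 0.741 and NPIPB5 3.45 ± 0.771 (SD, n = 2 each).

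ENO1 gene-end peaks in both replicates were present at 13 of the 19866 protein-coding genes (0.0654%), the set from which the 4 genes come. Another family copy, TAF11L6, also met that criterion at 3.33-fold and 4.29-fold, just below TAF11L3 by the lower of its replicate values. Just outside it, with a gene-end ENO1 peak in replicate 1 alone, were TAF11L10 at 5.67-fold, USP17L28 at 5.34-fold and NPIPB12 at 4.51-fold.

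Peaks of the other targets at the 4 genes were counted against all protein-coding genes. HDAC1 had a gene-end peak in both replicates at 3 of the 4 genes, against 8.18% of all protein-coding genes, and H4K12la at 2 of 4, against 10.5%. The 2 H4K12la genes, TAF11L3 and NPIPB5, were each carried by a weak replicate 1 peak. At a threshold of -log10 q of 5 or more, 0 of the 4 kept H4K12la in both replicates, whereas ENO1 kept 4 and HDAC1 3. Over 10 kb around the 4 genes there were 29 peaks in 8 separate places, and 4 of the places held all 3 targets. Those 4 places were nearest TAF11L3, TAF11L6, TAF11L7 and NPIPB5, and none was at USP17L11.

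Across the families, TAF11L copies had ENO1 nearby most often, while the order of USP17L and NPIPB turned with the distance used. Within 10 kb, ENO1 peaks of both replicates were found at 9 of 13 TAF11L copies (69.2%), 7 of 25 USP17L copies (28%) and 1 of 12 NPIPB copies (8.33%), against 0.634% of all protein-coding genes. At gene ends the shares were 23.1% (3 of 13) for TAF11L, 4% (1 of 25) for USP17L and 8.33% (1 of 12) for NPIPB. Because TAF11L and USP17L copies stand in tandem, 1 peak counts for several of them: the 9 TAF11L copies shared 4 places and the 7 USP17L copies shared 3, one of which is nearest a pseudogene. Without ENO1 replicate 2 the counts were 11 for USP17L and 2 for NPIPB, against 1.85% of all protein-coding genes. HDAC1 was within 10 kb in both replicates at 8 of 13 TAF11L, 8 of 25 USP17L (32%) and 1 of 12 NPIPB copies, against 14.3% of all protein-coding genes. H4K12la was near 8 of 13 TAF11L copies (61.5%), but near only 2 of 25 USP17L (8%) and 2 of 12 NPIPB copies (16.7%), where 17.9% of all protein-coding genes had it. The USP17L and NPIPB shares for H4K12la were at or below that level, and the NPIPB share for HDAC1 was below its own. In all these counts the peaks of the 2 replicates need not overlap. In the TAF11L array, H4K12la had both replicates in 1 place only nearest TAF11L3 and TAF11L10. HDAC1 had both only nearest TAF11L3, TAF11L6 and TAF11L10. For H4K12la TAF11L6, and for HDAC1 USP17L15, were counted only through different places in each replicate. No test was made, since the families were picked through their ENO1 peaks and neighbouring copies share peaks.

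**Figure D2:**
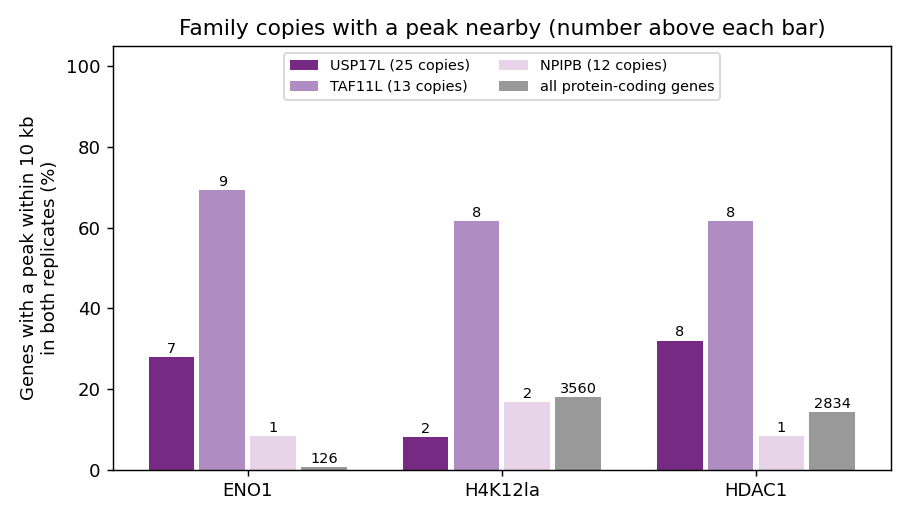
Percent of protein-coding copies of each family, and of all protein-coding genes (grey), with a peak within 10 kb in both replicates of ENO1, H4K12la or HDAC1, with the number of genes above each bar. TAF11L copies stand at 61.5% to 69.2% for all 3 targets, while all genes range from 0.634% for ENO1 to 17.9% for H4K12la. Neighbouring copies share peaks, and the peaks of the replicates need not overlap.

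TAF11 and TAF13, the single-copy TFIID subunits, had no peak within 10 kb in any of the 6 libraries. Among 158 genes of 10 other families with many copies (NPIPA, PRAMEF, TBC1D3, NBPF, GOLGA8, GOLGA6, GAGE, SPATA31, AMY and DEFB, by symbol prefix), 1, an NBPF gene, had ENO1 within 10 kb in both replicates, and 0 had an ENO1 gene-end peak in both. Of all protein-coding genes, 0.634% and 0.0654% met these ENO1 criteria. HDAC1 was near 4 and H4K12la near 10 of the 158, against 14.3% and 17.9% of all protein-coding genes. No test of the difference between these families and the others was made.

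The USP17L genes lie on chromosomes 4 and 8. All 6 copies on chromosome 8 lacked a peak within 10 kb in every library, as did 6 of the 19 protein-coding copies on chromosome 4. The chromosome 4 array spans 158.4 kb in a lower run of 13 genes and an upper run of 10, pseudogenes included, parted by 56 kb between USP17L22 and USP17L24. It held 6 peak places, of which HDAC1 reached all 6, ENO1 4 and H4K12la 2.

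The strongest place of the array in every library but HDAC1 replicate 1 was not at USP17L11 but past the last gene of the lower run. Its summits lay 2706 to 2939 bp above the upper end of USP17L22, beyond the gene-end window. ENO1 had 6.59-fold and 9.15-fold in replicates 1 and 2, H4K12la 7.35-fold and 6.74-fold, and HDAC1 6.24-fold and 7.03-fold. Each ENO1 and HDAC1 library was thus higher there than it was at USP17L11, and the H4K12la peaks exceeded 95.4% and 95.6% of their lists. The pseudogene USP17L6P, the last copy of the upper run, had ENO1 at 5.78-fold and 4.30-fold, HDAC1 at 6.45-fold and 5.17-fold, and H4K12la in replicate 2 only at 6.49-fold. Its HDAC1 peak of replicate 1 was the highest of that library in the array.

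Single-replicate peaks made up the rest of the array. At USP17L28, ENO1 replicate 1 (5.34-fold) and HDAC1 replicate 2 (5.17-fold) had summits 1 bp apart, 589 and 590 bp above the gene. USP17L13 had HDAC1 in replicate 2 only (4.03-fold) and USP17L15 in replicate 1 only (3.28-fold).

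**Figure D3:**
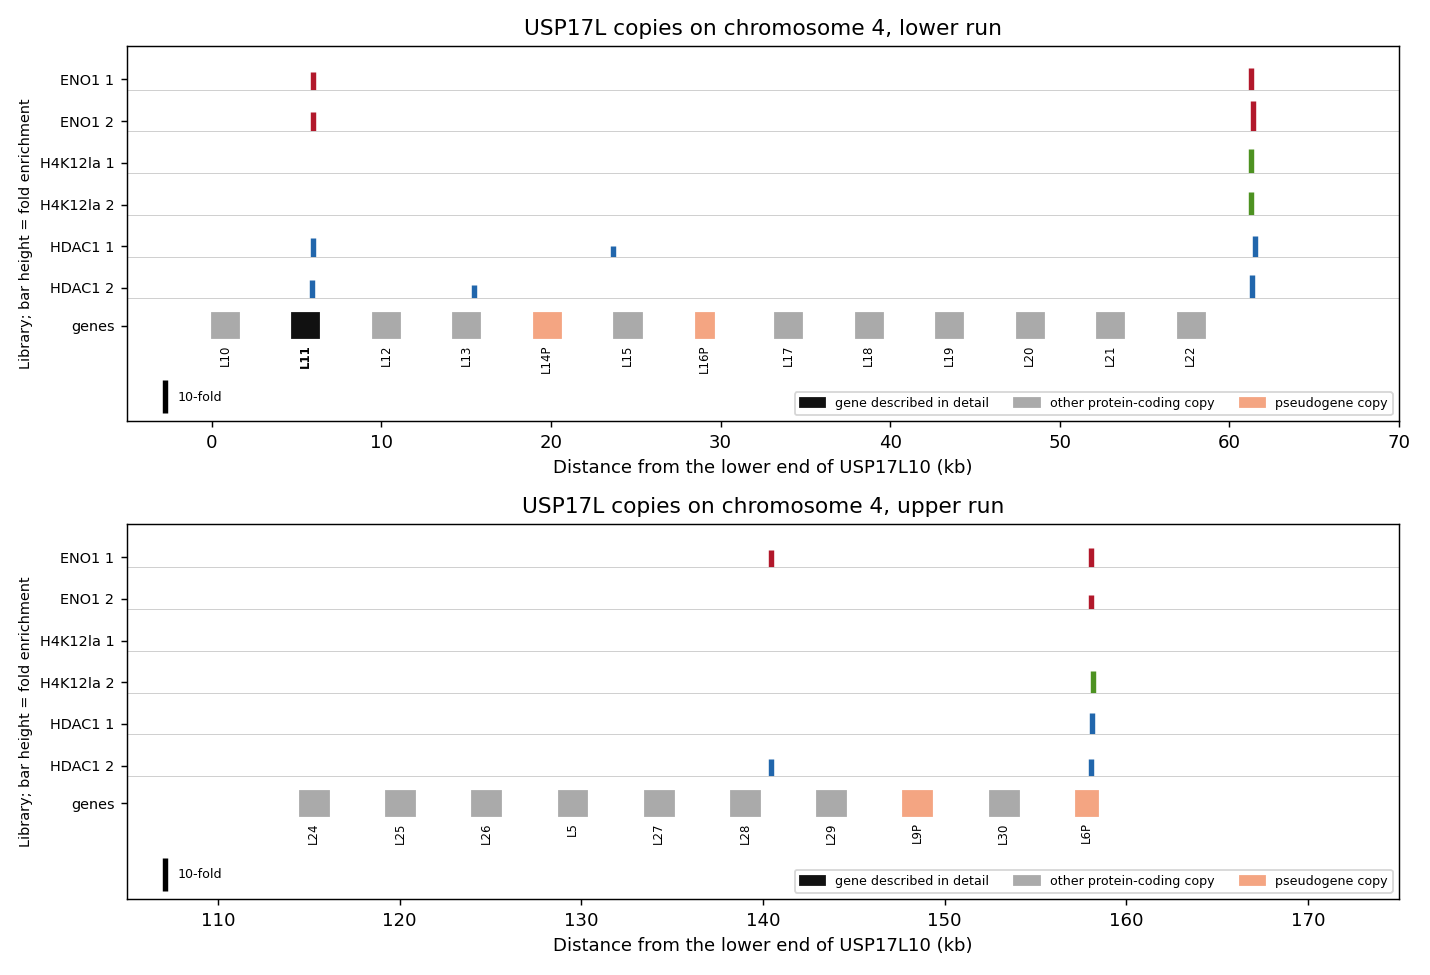
Peaks along the 2 runs of USP17L genes on chromosome 4, by library (target, replicate), with each bar at the peak's summit and its height giving fold enrichment to the scale bar of 10-fold. The x axis is distance in kb from the lower end of USP17L10, and gene boxes are black for USP17L11, grey for other protein-coding copies and orange for pseudogenes. Most copies have no bar, and the tallest bar of each library stands past L22, except in HDAC1 replicate 1, where it stands at L6P (6.45-fold against 6.24-fold).

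The TAF11L genes span 148.7 kb of chromosome 5. TAF11L3 to TAF11L6 form a plus-strand run with starts 3434 bp apart, and TAF11L7 to TAF11L10 a minus-strand run with starts 3434 to 5202 bp apart, parted from the first by 55.9 kb. Of the 6 peak places, 4 had ENO1 in both replicates, nearest TAF11L3, TAF11L6, TAF11L7 and TAF11L10, and all 4 also had H4K12la and HDAC1 in at least 1 replicate. The copies in the middle of the runs, TAF11L4, TAF11L5, TAF11L8 and TAF11L9, were nearest to none of them.

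The place beyond TAF11L10 had the highest ENO1 values of the TAF11L array, above both TAF11L3 and TAF11L7. ENO1 had 5.67-fold and 6.07-fold in replicates 1 and 2 there, with -log10 q of 19.0 and 26.2. H4K12la had 5.12-fold and 4.56-fold, and HDAC1 5.53-fold and 6.30-fold. Its 6 summits fell within 20 bp, 1250 to 1270 bp before the start of TAF11L10. The peaks of ENO1 replicate 1 and HDAC1 replicate 1 still reached within 1 kb of the gene, whereas that of ENO1 replicate 2 did not, so TAF11L10 missed the criterion by which the genes were chosen. At TAF11L6, ENO1 had 3.33-fold and 4.29-fold, H4K12la replicate 2 had 4.90-fold and HDAC1 had 3.13-fold and 3.41-fold, with summits spread from 687 to 993 bp before the start. TAF11L3, TAF11L6 and TAF11L10 have the same 300 promoter letters, yet only the window of TAF11L3 was reached by a peak, and the summits before the 3 starts lay at different distances.

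**Figure D4:**
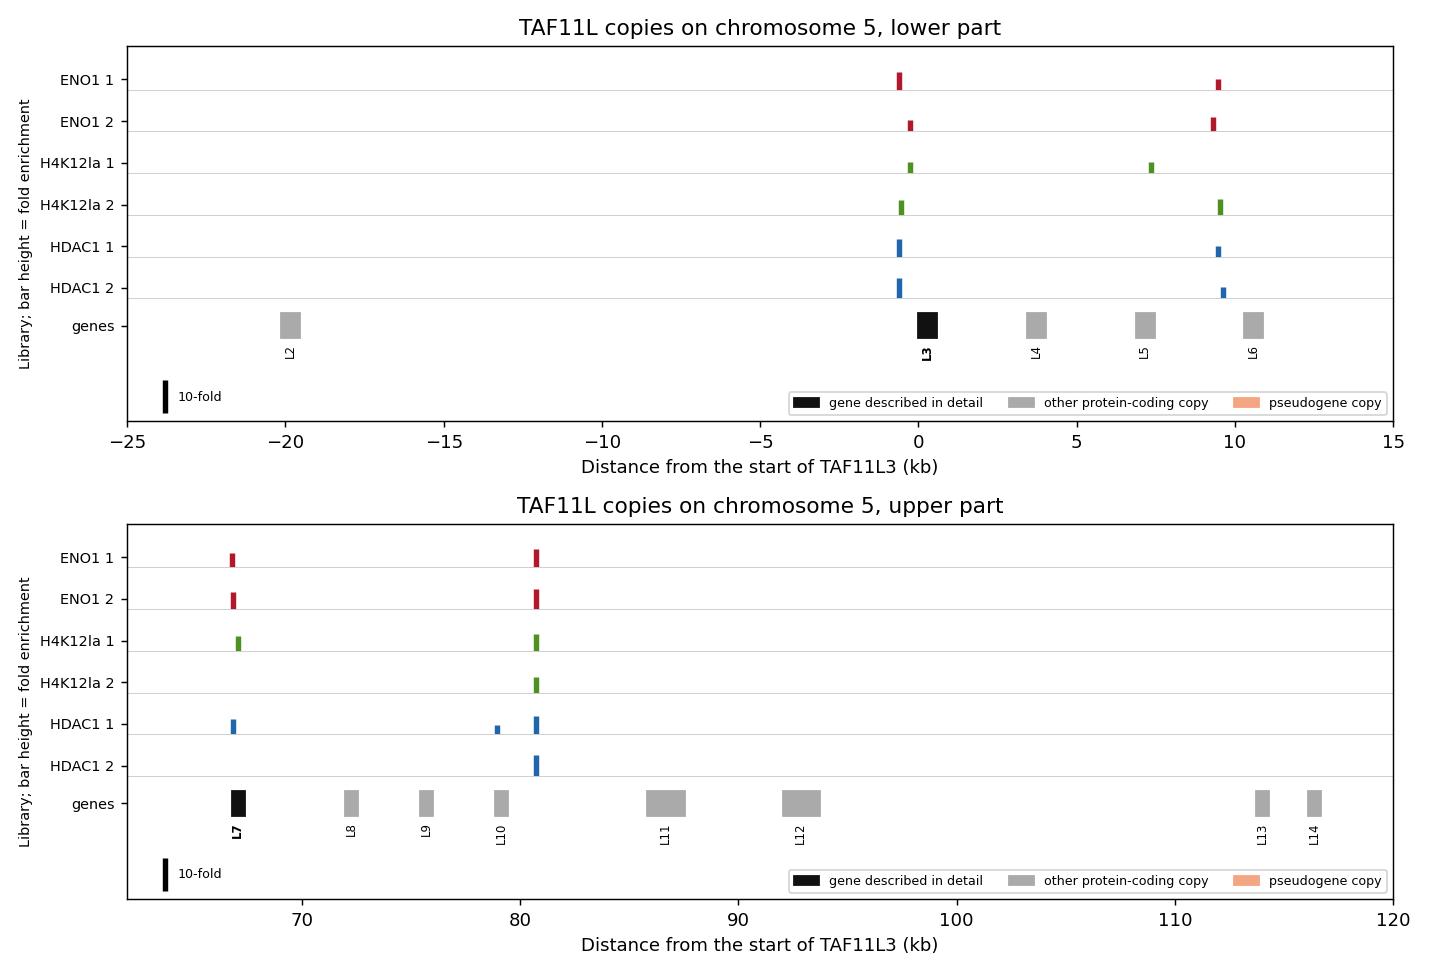
Peaks along the TAF11L genes of chromosome 5, by library (target, replicate), with each bar at the summit and its height giving fold enrichment to the scale bar of 10-fold. The x axis is distance in kb from the start of TAF11L3, and black boxes are TAF11L3 and TAF11L7. Bars of 3 targets stand at the outer copies of each run, and none stand near L2 or L12 to L14.

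Summits recurred at like distances from the upper gene end in different USP17L copies. In USP17L11, USP17L13 and the pseudogene USP17L6P, 10 peaks had their summits 261 to 433 bp inside that end. Their median was 366 bp, and 4 of them came from USP17L11 and 5 from USP17L6P. The single HDAC1 peak of USP17L13 lay at 364 bp, close to the ENO1 summits of USP17L11 at 365 and 367 bp. USP17L6P is annotated at 1197 bp, and USP17L11 and USP17L13 at 1593 bp, so the likeness depends on the end used. From the lower end the USP17L6P summits lay at 808 to 935 bp, against 1159 to 1228 bp in USP17L11 and USP17L13. Inside TAF11L5, TAF11L7 and TAF11L10, 6 summits lay 312 to 565 bp after the start, with a median of 524.5 bp. These were picked for lying inside genes of 597 bp, which bounds their range, and 4 of the 6 came from TAF11L7. TAF11L5 contributed H4K12la replicate 1 (3.21-fold, at 479 bp) and TAF11L10 HDAC1 replicate 1 (2.83-fold, at 522 bp). These groups of copies were put together after their summits had been seen, and reads shared between copies could place the same signal in more than 1 of them, which was not tested.

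**Figure D5:**
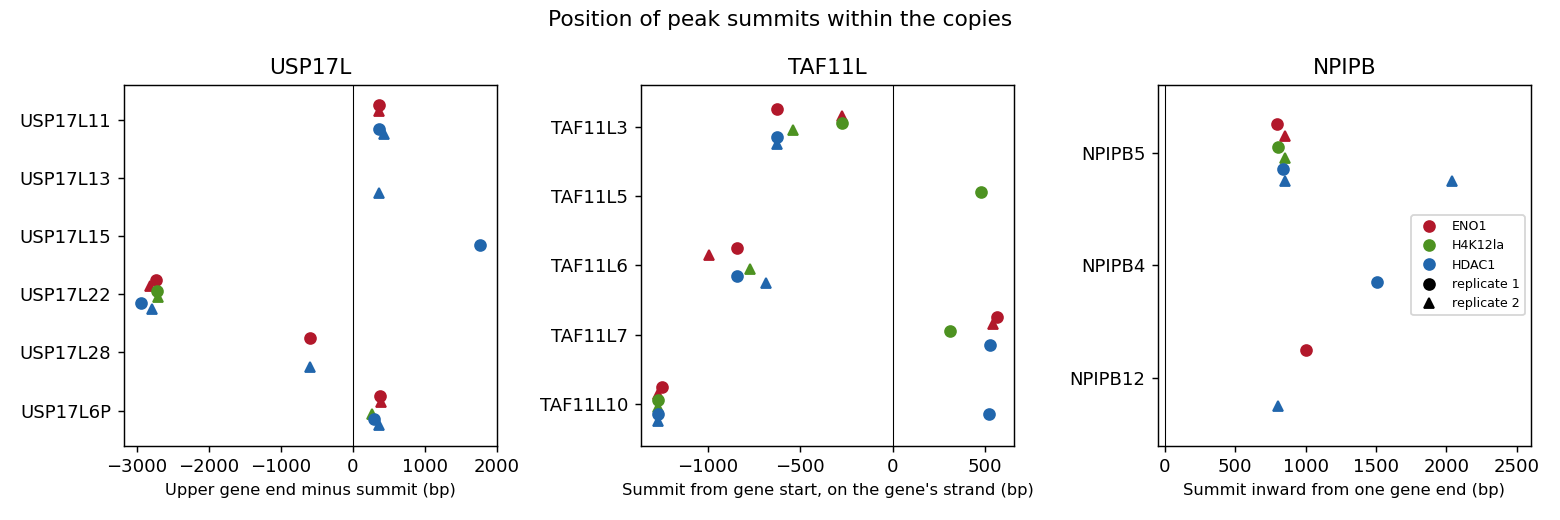
Summit positions (bp) of the peaks nearest each copy, coloured by target, with circles for replicate 1 and triangles for replicate 2. USP17L distances run inward from the upper gene end, TAF11L distances from the gene start on its strand, and NPIPB distances inward from the upper end of NPIPB5 or the lower end of NPIPB4 and NPIPB12. Summits of USP17L11, USP17L13 and the shorter USP17L6P lie 261 to 433 bp inside the upper end. Those before TAF11L3, TAF11L6 and TAF11L10 do not line up.

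Outside NPIPB5, the NPIPB copies had few peaks, and 7 of the 12 had none within 10 kb in any library. NPIPB12 had ENO1 in replicate 1 only (4.51-fold, -log10 q 5.92) and HDAC1 in replicate 2 only (3.12-fold, -log10 q 2.98). NPIPB4 had HDAC1 in replicate 1 only (3.96-fold). Both genes lie on the minus strand, so these summits, 807 to 1003 bp inside the lower end of NPIPB12 and 1509 bp inside that of NPIPB4, fell near the end of the gene opposite its start. NPIPB2 had H4K12la in replicate 1 only (3.53-fold), 81 bp after its start. NPIPB15 had H4K12la in both replicates, at 4.82-fold and 5.10-fold, 7323 bp below the gene, and no ENO1 or HDAC1. Thus NPIPB5 was the 1 copy of its family with ENO1 or HDAC1 in both replicates.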

How the data were processed

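CUT&Tag libraries of ENO1, H4K12la and HDAC1 (2 each) were grouped and numbered by their titles. Per the submitters' processing notes, FastQC, Bowtie2, MACS2 and deepTools were used with hg38. Versions, settings, the use of a control and the handling of reads that match several places were not given in the sources used here. Narrow peak lists were deposited, 1 per library, so peaks were called per sample. In the authors' lists the fold enrichment is a ratio over the peak caller's background within a library, without scaling between libraries. The deposited -log10 of the p value and q value start just above 2 for q, and the deposited score is 10 times the -log10 q, cut to a whole number.

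Peaks on the 24 chromosomes were joined to RefSeq genes of GRCh38 patch 14, after 718 entries of alternate sequences (171 protein-coding, 0 of these families) were left out, recognised by where positions in the table first fall. A gene was near a peak when at least 1 bp lay within 10 kb of it, and gene ends were windows of 1 kb on each side of both annotated ends. Overlapping peaks were merged into places. Strand and promoters came from the RefSeq promoter table, which matched 19 of the 58 family genes (13 TAF11L, 6 NPIPB). Promoters were aligned globally with Biopython 1.88 (match 1, mismatch -1, gap opening -2). Python 3.11.15, pandas 2.3.3 and NumPy 2.4.6 were used, and the window counts were tested on simulated data. No test between groups was made, since the genes were chosen by the readout and copies share sequence. Named genes were the 4 genes, TAF11, TAF13, and other copies with a peak nearby, of which those that only share a neighbour's place are counted and not named. The members and lists were chosen with earlier results of these data known. Alternatives were other distances, a stricter q value, either replicate, pseudogenes, other overlaps and each replicate left out.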

Additional observations from a re-analysis of the deposited data

How the results depend on the processing

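Of 85 recomputed counts, 64 stayed within 1.5 times their main value and 21 did not; the cause of a move was not tested beyond what each setting does by construction. Narrowing the distance lowered counts of copies, since a peak then reaches fewer neighbours. Within 1 kb of gene ends, ENO1 was at 1 USP17L and 3 TAF11L copies, H4K12la at 0 USP17L, 1 TAF11L and 1 NPIPB copies, and HDAC1 at 1 USP17L and 2 TAF11L copies. Within 5 kb, H4K12la was at 1 USP17L and 1 NPIPB copies and HDAC1 at 5 USP17L copies. At -log10 q of 5 or more, H4K12la was at 4 TAF11L copies, 1 NPIPB copy and 0 of the 4 genes. With a peak in either replicate, ENO1 was at 11 USP17L and 2 NPIPB copies and HDAC1 at 13 USP17L and 3 NPIPB copies. With each replicate left out, ENO1 ranged from 7 to 11 USP17L copies and from 1 to 2 NPIPB copies, with the higher counts without replicate 2, and HDAC1 was at 2 NPIPB copies either way. The places around the 4 genes that held all 3 targets numbered 4 with an overlap of at least 50% of the shorter peak and at the stricter q value, and 3 without replicate 1 or without replicate 2. Counts with pseudogenes included stayed within 1.5 times in all 9 cases. No paired analysis was possible because the results are counts and single values from no test. Depth is unknown, so peaks missing in 1 replicate cannot be told from peaks just under the threshold.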

Other observations

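Along the tandem arrays, places with ENO1 in both replicates were mostly nearest the outermost copies. The USP17L and TAF11L genes form 4 runs of 4 or more copies, 31 genes in all, with 8 first or last copies and 23 inner ones. Of the 7 places with ENO1 in both replicates, 6 were nearest a first or last copy (USP17L22, USP17L6P, TAF11L3, TAF11L6, TAF11L7 and TAF11L10) and 1 was nearest an inner copy, USP17L11, which is the second of 13. This pattern was noticed after the values were seen and was not tested, and copies that differ little in sequence can share reads. Any peak in the 10 kb flanks outside a run is nearest a first or last copy by construction, like those past USP17L22 and TAF11L10. The TAF11L runs of 4 copies span only 10.9 and 12.7 kb, so their flanks make up much of the searched sequence. The counts of 8 and 23 are of genes and not of searched sequence.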
